A study of Mus musculus with 35 samples.

Results

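Astrocyte-enriched cells of the hypothalamus were compared with those of the cortex in mice on standard chow (SC). The comparison took the 6 libraries titled as hypothalamus on SC and the 6 titled as cortex on SC, which are 12 of the 35 libraries of the series. All came from male C57BL/6JRj mice that received SC from 8 to 9 weeks of age for 4 months. Each library pooled the tissue of 2 animals, so its spread is that between pools. The other libraries held hippocampus, or mice on a high-fat high-sugar diet (HFHS). Of these, the 5 hypothalamus and 6 cortex libraries on HFHS were used here as a second measurement of the same regions. The labels do not say whether a hypothalamus pool and a cortex pool with the same number came from the same animals.

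Per the labels' protocols, dissociated cells were enriched on magnetic columns for ACSA2, the astrocyte surface antigen that Atp1b2 encodes, and cDNA was made with a SMART-Seq v4 kit, which does not keep strand. Hypothalamus cells passed over MS columns with standard volumes, and cortex cells over the larger LS columns with scaled volumes. An effect of column or volume and an effect of region cannot be told apart in this design. The fractions are enriched and not pure, so a gene's level can follow the cells of the fraction or the RNA in each cell. Fewer cells of a type and less RNA per cell cannot be told apart in these data.

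Astrocytes take up glutamate and potassium, couple to each other through gap junctions, wrap blood vessels with their endfeet and supply neurons with lactate and cholesterol. Those of the cortex descend from the telencephalon and keep several of its transcription factors in the adult. The hypothalamus develops from more ventral and posterior forebrain, borders the third ventricle with its ciliated ependymal cells and its tanycytes, and controls feeding, body temperature and hormone release.

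Between 49702900 and 57815413 reads were assigned to transcripts per hypothalamus library, and between 54612169 and 63679930 per cortex library. Of the cortex libraries, replicate 6 stood apart. Weighted by abundance (TPM), its transcripts averaged 1034 bases, against 1534 to 1671 bases in the other cortex libraries and 1469 to 1819 in hypothalamus. Mitochondrially encoded transcripts made up 10.9% of its reads, against 3.40% to 5.57% in the other cortex libraries and 1.18% to 4.79% in hypothalamus. Results that it decides are given below with and without it.

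A total of 18656 genes were tested with edgeR's quasi-likelihood test. Of these, 3542 were higher and 3226 were lower in hypothalamus at an adjusted p under 0.05, which is 19.0% and 17.3% of the genes tested and 36.3% in both directions. Each log2 fold change is hypothalamus minus cortex and is followed by its standard error (SE). Its median over all genes tested was 0.02. Changes of at least 3 on the log2 scale were called for 884 genes that were higher in hypothalamus and for 211 that were lower. Where the libraries were scaled by their totals alone, 5006 genes were higher and 1700 lower, with the median of all genes at 0.38, and limma on log2(TPM + 1) gave 6063 and 1216. Levels below are CPM, reads of the gene relative to the TMM-scaled total of the library, given as the lowest and highest library of a group with the median of the 6.

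Most astrocyte markers were lower in hypothalamus. Of the 20 markers tested, 18 were lower and 0 were higher, with a median log2 fold change of -1.97, and 15 had groups that did not overlap. Across all genes, 9.75% had groups that did not overlap and were lower in hypothalamus. Summed over the list, the markers reached 5764 to 11050 CPM in hypothalamus and 31490 to 61650 CPM in cortex. The call was made for the same number of markers, 18, whichever library was left out.

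Slc1a2, which encodes the main astrocytic glutamate transporter, lay between 118 and 376 CPM (median 247) in hypothalamus and between 2811 and 6607 CPM (median 3785) in cortex. The groups did not overlap, and the log2 fold change was -4.12 ± 0.34 (adjusted p = 1.21e-06). Aldh1l1, a folate enzyme used to mark astrocytes, lay between 55.2 and 110.4 CPM (median 87.8) in hypothalamus and between 229 and 757 CPM (median 482) in cortex, again without overlap (-2.52 ± 0.28, adjusted p = 1.32e-05). Atp1b2, which encodes the sorting antigen itself, lay between 289 and 585 CPM (median 479) in hypothalamus and between 592 and 1387 CPM (median 1157) in cortex. Its groups did not overlap, and its change of -1.24 ± 0.26 was smaller in size than the median of the list (adjusted p = 0.00241). Gfap, the intermediate filament of astrocytes, lay between 48.7 and 169.9 CPM (median 133) in hypothalamus and between 146 and 846 CPM (median 397) in cortex, with the highest hypothalamus library above the lowest cortex library (-1.93 ± 0.40, adjusted p = 0.00205).

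The members that missed the threshold were Sox9 and S100b. Sox9, a transcription factor of the astrocyte lineage, lay between 234 and 467 CPM (median 322) in hypothalamus and between 231 and 437 CPM (median 342) in cortex. The ranges of its groups nearly coincided (-0.01 ± 0.20, adjusted p = 0.983). S100b, a calcium-binding protein that oligodendrocytes and ependymal cells also make, had a log2 fold change of -0.62 ± 0.32 (adjusted p = 0.151). These members of the list were named after their values were seen.

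Markers of other cells were present in both regions, and several groups of them were higher in hypothalamus. Of 8 genes that mark oligodendrocyte precursors, which divide and mature into myelin-forming cells, 7 were higher and 0 lower, with a median log2 fold change of 3.59. Of 4 markers of committed precursors, 3 were higher. Pdgfra, the growth factor receptor of precursors, lay between 95.7 and 418 CPM (median 209) in hypothalamus and between 0.84 and 8.75 CPM (median 4.97) in cortex, with no overlap (5.59 ± 0.58, adjusted p = 6.90e-06). C1ql1, a secreted synapse organiser that precursors also make, lay between 15.2 and 55.1 CPM (median 45.3) in hypothalamus and between 1.22 and 2.73 CPM (median 1.72) in cortex (4.43 ± 0.36, adjusted p = 8.74e-07). Gpr17, a receptor of cells about to differentiate, lay between 51.7 and 297 CPM (median 148) in hypothalamus and between 0.789 and 4.85 CPM (median 3) in cortex (5.74 ± 0.52, adjusted p = 2.15e-06). All hypothalamus libraries exceeded all cortex libraries for these 3 genes.

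Markers of mature oligodendrocytes, the cells that make myelin, differed less. Of 14, 7 were higher and 0 lower, with a median of 0.80. The groups overlapped for every one of the 14. Mbp, which encodes myelin basic protein, lay between 40360 and 69480 CPM (median 63370) in hypothalamus and between 15480 and 49910 CPM (median 26470) in cortex (1.10 ± 0.30, adjusted p = 0.0111). The 7 calls became 5 without any 1 of hypothalamus replicates 1, 2 and 3 or cortex replicates 2, 4 and 5, and 10 without cortex replicate 3.

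Microglial and vascular lists stood differently. None of 14 microglial markers and none of 13 endothelial markers passed the threshold by edgeR. The median over the endothelial markers was -1.46, with wide spread among the cortex libraries, and -0.76 without cortex replicate 4. Without cortex replicate 2 or 3, 3 were lower, and 1 without cortex replicate 6. Cldn5, a tight junction protein, lay between 33.6 and 99.4 CPM (median 55.7) in hypothalamus and between 26.7 and 552 CPM (median 165) in cortex (adjusted p = 0.0504). Of 10 mural markers, 3 were higher and 0 lower, although 2 were lower without cortex replicate 3 or 6 and 1 without cortex replicate 2. They included Kcnj8, a potassium channel of pericytes, between 23.6 and 80.2 CPM (median 31.1) in hypothalamus and between 6.81 and 20.4 CPM (median 12.8) in cortex (1.56 ± 0.34, adjusted p = 0.00299). Of 7 fibroblast markers, 4 were higher, among them Dcn, a collagen-binding proteoglycan, between 29.5 and 81.6 CPM (median 61.7) in hypothalamus and between 3.42 and 22.1 CPM (median 7.87) in cortex (2.57 ± 0.45, adjusted p = 0.000539). The fibroblast calls fell to 2 without hypothalamus replicate 2 or 3 or cortex replicate 2 or 3. Called genes of the oligodendrocyte, precursor and fibroblast lists were all higher in hypothalamus, while those of the astrocyte list were all lower. The part of any of these marker lists in the results that follow was not tested.

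**Figure D1:**
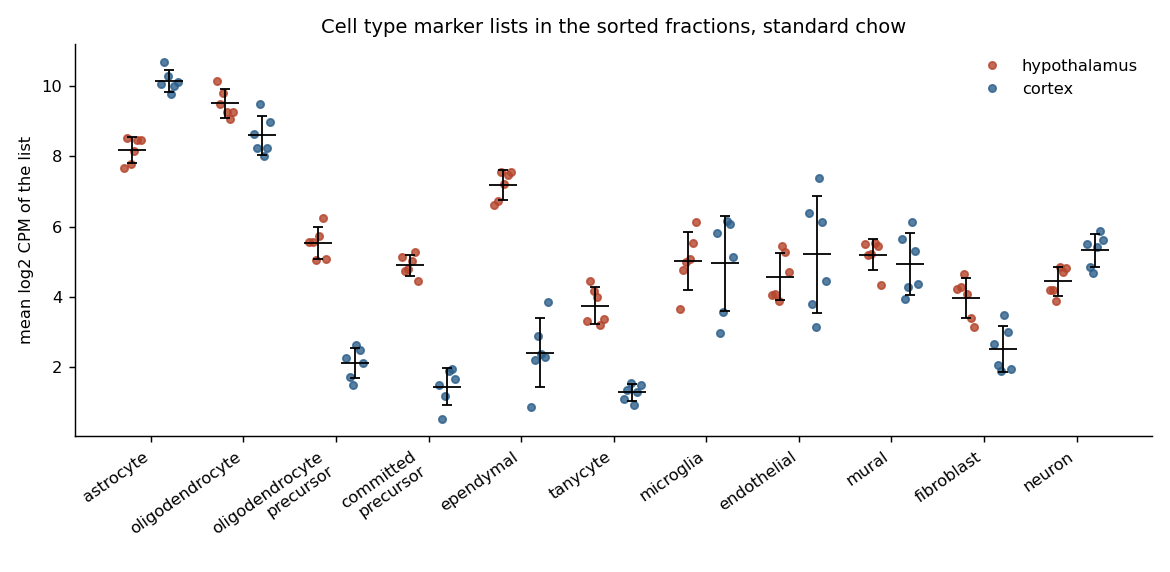
Level of 11 cell type marker lists in each library on SC, as the mean log2 CPM of the list (vertical axis), with hypothalamus in red and cortex in blue. Points are libraries (n = 6 per region), and the bars give the mean ± SD. The astrocyte list lies between 7.68 and 8.53 in hypothalamus and between 9.77 and 10.7 in cortex, and the ependymal list between 6.61 and 7.56 and between 0.87 and 3.87.

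The regional origin of the fractions was read from transcription factors that pattern the forebrain. Of 11 factors of the telencephalon, the part of the embryonic forebrain that forms the cortex, 10 were lower in hypothalamus and 0 higher, with a median log2 fold change of -1.83. Emx2, a homeobox factor of the dorsal telencephalon (chr19:59458372-59465357, GRCm38), lay between 0.226 and 1.95 CPM (median 0.694) in hypothalamus and between 26.1 and 40.4 CPM (median 34.5) in cortex. No library of a region entered the range of the other (-5.34 ± 0.45, adjusted p = 1.25e-06). Lhx2, a LIM-homeobox factor of cortical progenitors, lay between 7.67 and 23.5 CPM (median 14.1) in hypothalamus and between 159 and 269 CPM (median 190.2) in cortex (-3.76 ± 0.29, adjusted p = 6.86e-07). Nr2e1, an orphan nuclear receptor also called Tlx, lay between 4.39 and 13.8 CPM (median 8.56) in hypothalamus and between 49.2 and 133 CPM (median 79) in cortex (-3.29 ± 0.33, adjusted p = 4.94e-06). Emx2, Lhx2 and Nr2e1 separated the regions in every library. Emx2os, annotated antisense to Emx2 (chr19:59425104-59458635), lay between 0 and 1.03 CPM (median 0.261) in hypothalamus and between 13.5 and 28 CPM (median 16.8) in cortex, with a change of -5.76 that was -6.45 without hypothalamus replicate 6. Since the kit keeps no strand, reads of Emx2 and Emx2os cannot be told apart where the genes overlap.

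Hypothalamic factors showed the opposite order. Of 22 on the list, 13 passed the filter on low counts, and 10 of these were called higher and 0 lower. A factor expressed in hypothalamus alone passes the filter through its hypothalamus libraries, so this count describes the 13 and does not speak for the list. The 9 untested factors reached at most 1.33 CPM in any library. Nkx2-1, the homeobox factor that specifies the hypothalamus (chr12:56531958-56536908), lay between 4.46 and 9.37 CPM (median 7.81) in hypothalamus and between 0.0965 and 0.317 CPM (median 0.216) in cortex, with no overlap (5.10 ± 0.36, adjusted p = 2.39e-07). Six3, a homeobox factor of the anterior forebrain, lay between 10.2 and 32.1 CPM (median 18.3) in hypothalamus and between 1.62 and 5.36 CPM (median 2.82) in cortex (2.55 ± 0.39, adjusted p = 0.000223). Rax, a retina and hypothalamus homeobox factor that tanycytes keep, lay between 8.05 and 25.6 CPM (median 19.3) in hypothalamus and between 0.157 and 3.38 CPM (median 0.435) in cortex (4.39 ± 0.75, adjusted p = 0.000503). Its highest cortex value came from replicate 6, and the log2 fold change was 5.58 without that library. Six6, a relative of Six3, lay between 1.53 and 5.08 CPM (median 4.27) in hypothalamus and between 0 and 0.11 CPM (median 0) in cortex, so its fitted change of 7.42 rests on cortex libraries with hardly any reads, and it was 10.8 without cortex replicate 4. The levels of these 4 factors in hypothalamus were low, with medians from 4.27 CPM for Six6 to 19.3 CPM for Rax.

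Factors of the forebrain midline were on the same side. Of 10 Zic and related genes, 6 were higher and 1 was lower in hypothalamus. Zic4, a zinc finger factor, lay between 13.3 and 23.1 CPM (median 18.8) in hypothalamus and between 1.21 and 4.62 CPM (median 3.1) in cortex (2.63 ± 0.32, adjusted p = 2.85e-05). Irx2, an Iroquois homeobox factor, lay between 2.37 and 7.18 CPM (median 5.32) in hypothalamus and between 0 and 0.251 CPM (median 0.0874) in cortex (5.56 ± 0.60, adjusted p = 1.01e-05).

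**Figure D2:**
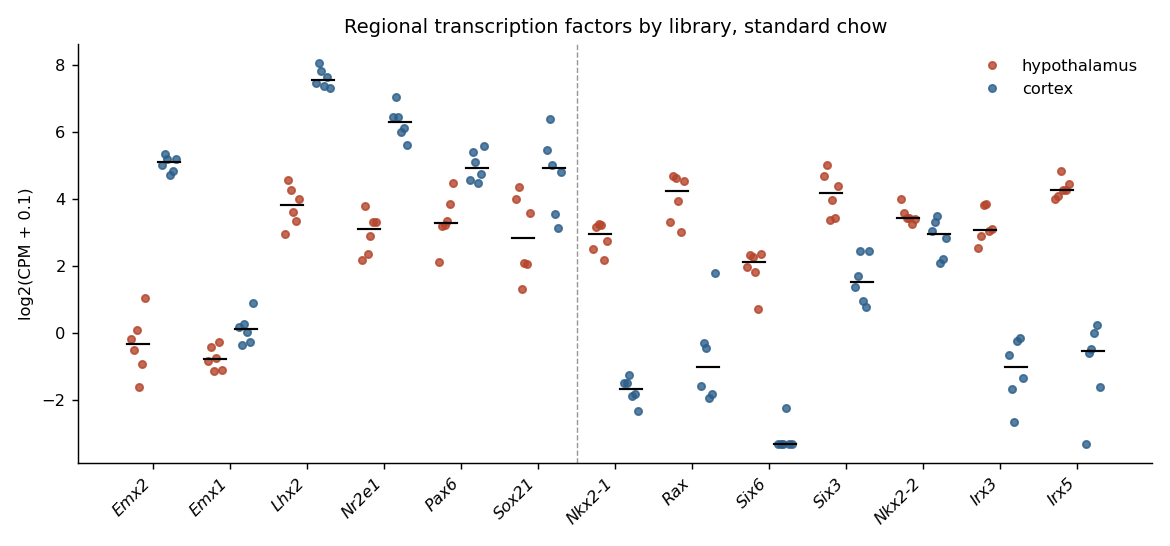
Levels of 13 regional transcription factors in each library on SC, as log2(CPM + 0.1) on the vertical axis, with telencephalic factors left of the dashed line and hypothalamic or ventral factors right of it. Points are libraries (hypothalamus red, cortex blue, n = 6 each), and black bars are medians. For Emx2 the cortex libraries lie between 26.1 and 40.4 CPM and the hypothalamus libraries between 0.226 and 1.95 CPM, and Nkx2-1 shows the reverse order.

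Genes reported to separate telencephalic astrocytes from those of other regions were compared next. Of the 6 telencephalic astrocyte genes, 5 were lower in hypothalamus and 0 higher, with a median of -3.54, beyond that of the astrocyte markers. Lhx2 is also on this list. Chrdl1, a secreted factor that matures synapses, lay between 0.435 and 8.76 CPM (median 1.32) in hypothalamus and between 154 and 347 CPM (median 197) in cortex. It was nearly absent from most hypothalamus libraries (-6.31 ± 0.75, adjusted p = 2.20e-05), and the change was -7.15 without hypothalamus replicate 6. Mfge8, a secreted bridge to phosphatidylserine on dying cells, lay between 261 and 469 CPM (median 369) in hypothalamus and between 2691 and 4490 CPM (median 3540) in cortex (-3.32 ± 0.21, adjusted p = 1.34e-07). Of the 4 non-telencephalic astrocyte genes tested, 2 were higher and 0 lower. Itih3, a hyaluronan-binding inhibitor chain, lay between 355 and 1082 CPM (median 543) in hypothalamus and between 148 and 460.2 CPM (median 279) in cortex (1.04 ± 0.30, adjusted p = 0.0146). Slc6a9, the glial glycine transporter GlyT1, lay between 263 and 474 CPM (median 345) in hypothalamus and between 36.3 and 244 CPM (median 158) in cortex (1.16 ± 0.36, adjusted p = 0.0231), and its adjusted p was 0.0532 without hypothalamus replicate 1. Slc6a11, the GABA transporter GAT3, lay between 182 and 533 CPM (median 361) in hypothalamus and between 154 and 537 CPM (median 289) in cortex, with a change of 0.16 ± 0.32 (adjusted p = 0.721). The ranges of its groups nearly coincided.

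The 24 genes with the largest changes came from groups already named and from others. The rule took the 12 largest changes in each direction among called genes whose groups do not overlap and whose log2 CPM averages 3 or more. Higher in hypothalamus were tanycyte genes such as Gpr50, an orphan receptor related to those for melatonin, between 23.8 and 89.2 CPM (median 48.4) in hypothalamus and between 0.125 and 1.04 CPM (median 0.531) in cortex (6.45 ± 0.54, adjusted p = 1.18e-06). Scn7a, an atypical sodium channel of sodium-sensing glia, lay between 36.8 and 92.1 CPM (median 57) in hypothalamus and between 0.354 and 1.42 CPM (median 0.64) in cortex (6.29 ± 0.38, adjusted p = 1.04e-07). Fndc3c1 lay between 8.03 and 39.2 CPM (median 21.5) in hypothalamus and between 0 and 0.232 CPM (median 0) in cortex (8.98 ± 0.92), and its change was 11.9 without cortex replicate 5, the library that held most of its cortex reads. The cilia genes Ccdc40, Cfap65, Ttc29, Dnah5, Crocc2 and Ttc21a were also among these 12, as were Inava, Ces1d and Adgb. The change of Dnah5 was 6.88 without cortex replicate 5 and that of Adgb 6.87 without cortex replicate 4. Lower in hypothalamus was Rpe65, a retinoid isomerase best known from the eye, between 0 and 0.484 CPM (median 0.179) in hypothalamus and between 24.8 and 87.1 CPM (median 31.7) in cortex (-7.63 ± 0.67, adjusted p = 1.81e-06). Hapln1, a link protein of the extracellular matrix, lay between 0.196 and 2.32 CPM (median 1.3) in hypothalamus and between 38.1 and 90.7 CPM (median 69) in cortex (-5.70 ± 0.60, adjusted p = 7.54e-06). Ppp1r3g, a subunit that targets a phosphatase to glycogen, lay between 0.655 and 9.65 CPM (median 1.96) in hypothalamus and between 76.2 and 125 CPM (median 104) in cortex (-5.15 ± 0.63, adjusted p = 3.12e-05), and its change was -6.06 without hypothalamus replicate 6. Slc17a7 and Slc30a3, vesicular transporters for glutamate and zinc in excitatory neurons, were in the same group, with changes of -4.58 and -4.47. Chrdl1, Emx2os, Emx2, St6galnac5, Kirrel2 and Baalc were also among the 12.

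Genes of motile cilia, the beating cilia that move cerebrospinal fluid along the ventricles, were higher in hypothalamus. Of 22 axoneme genes, 21 were called higher and 0 lower, with a median log2 fold change of 5.05. All 12 ependymal markers were also higher, with a median of 4.47 that was 5.13 without cortex replicate 6, and 4 of them, Ak7, Tekt1, Cfap126 and Hydin, are also on the axoneme list. Foxj1, the master regulator of motile ciliogenesis, lay between 185 and 364 CPM (median 239.6) in hypothalamus and between 1.38 and 14 CPM (median 7.04) in cortex (5.18 ± 0.48, adjusted p = 2.80e-06). The lowest hypothalamus library stood far above the highest cortex library. Myb, a transcription factor of multiciliated cells, lay between 32.3 and 64.1 CPM (median 43.5) in hypothalamus and between 0.301 and 1.64 CPM (median 0.672) in cortex (5.81 ± 0.41, adjusted p = 2.71e-07). Rfx2, a factor that binds X-box motifs of cilia genes, lay between 55.5 and 121 CPM (median 67.5) in hypothalamus and between 3.86 and 7.9 CPM (median 7.21) in cortex (3.54 ± 0.26, adjusted p = 4.50e-07). Its relative Rfx3, which many other cells use for primary cilia, overlapped between regions (0.51 ± 0.20, adjusted p = 0.0533). Of the 7 regulators tested, 6 were higher and 0 lower.

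Members came from several parts of the axoneme. Dnah5, a heavy chain of the outer dynein arm, lay between 25.1 and 57 CPM (median 30.9) in hypothalamus and between 0 and 1.39 CPM (median 0.331) in cortex (6.18 ± 0.79, adjusted p = 4.31e-05). Rsph4a, a head protein of the radial spokes, lay between 126 and 218 CPM (median 147) in hypothalamus and between 1.81 and 4.48 CPM (median 3.44) in cortex (5.58 ± 0.28, adjusted p = 7.05e-08). Hydin, of the central pair, lay between 22.1 and 52.4 CPM (median 31.8) in hypothalamus and between 0.635 and 1.32 CPM (median 0.917) in cortex (5.24 ± 0.30, adjusted p = 8.81e-08). For Dnah5, Rsph4a and Hydin, no cortex library reached the lowest hypothalamus library. Ccdc40, which helps set the spacing of the axoneme, lay between 64.2 and 218 CPM (median 145) in hypothalamus and between 0.151 and 3.19 CPM (median 2.35) in cortex (6.26 ± 0.64, adjusted p = 6.03e-06). The member that was not called, Rsph9, named after its value was seen, lay between 77.7 and 139 CPM (median 105) in hypothalamus and between 20.8 and 157 CPM (median 25.2) in cortex (1.15 ± 0.48, adjusted p = 0.0762). Its highest cortex value was in replicate 6, the other cortex libraries lay between 20.8 and 37.0 CPM, and without replicate 6 all 22 members were called higher.

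The promoters of axoneme genes were searched for the half-site of the X-box, the motif that RFX factors bind, to show which of these genes carry it next to their start. The letters searched were GTTGCCA and GTTGCTA on both strands in the 250 bases before the annotated start, with RefSeq promoters of build GRCm38.p6. Of the 22 members, 19 had a promoter in the table and 6 of these held a match, which were Cfap44, Dnah5, Dnah6, Drc1, Hydin and Tekt1. Of all 32851 promoters of the same length, 6.47% held one. Cfap44, chosen after its values and its matches were seen, holds a pair of half-sites in opposite directions. The stretches below run 5′ to 3′ on the strand of the gene, with matches in capitals. They lie at chr16:44394549-44394798 (+ strand) for Cfap44, chr8:110266727-110266976 (+ strand) for Hydin, chr15:28203516-28203765 (+ strand) for Dnah5 and chr11:72361883-72362132 (- strand) for Tekt1, in each case before the first start that RefSeq lists. Against the GENCODE gene bounds, the stretch of Hydin ends at the gene, those of Cfap44 and Dnah5 run into its first bases, and that of Tekt1 lies within it.
Cfap44: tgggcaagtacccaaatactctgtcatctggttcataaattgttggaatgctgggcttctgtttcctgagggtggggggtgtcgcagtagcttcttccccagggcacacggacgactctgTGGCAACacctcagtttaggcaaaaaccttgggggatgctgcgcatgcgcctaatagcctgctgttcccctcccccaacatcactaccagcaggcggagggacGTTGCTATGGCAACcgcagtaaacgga
Hydin: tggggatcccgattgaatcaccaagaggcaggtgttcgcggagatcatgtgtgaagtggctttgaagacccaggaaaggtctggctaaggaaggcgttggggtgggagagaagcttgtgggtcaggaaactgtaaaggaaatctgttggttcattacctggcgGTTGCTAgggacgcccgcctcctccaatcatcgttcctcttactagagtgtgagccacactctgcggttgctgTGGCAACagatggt
Dnah5: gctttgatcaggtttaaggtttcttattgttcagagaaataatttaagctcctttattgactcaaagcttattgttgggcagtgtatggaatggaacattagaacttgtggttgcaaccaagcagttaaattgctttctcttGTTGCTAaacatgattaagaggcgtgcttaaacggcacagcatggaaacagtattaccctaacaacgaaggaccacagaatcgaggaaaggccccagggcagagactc
Tekt1: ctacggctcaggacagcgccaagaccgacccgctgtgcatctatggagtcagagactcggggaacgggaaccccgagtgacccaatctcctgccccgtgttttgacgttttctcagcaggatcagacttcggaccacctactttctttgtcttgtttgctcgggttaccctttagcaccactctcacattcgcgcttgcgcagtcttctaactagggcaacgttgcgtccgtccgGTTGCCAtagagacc

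Cfap44 holds 3 matches, Hydin 2, and Dnah5 and Tekt1 1 each. In expression, Cfap44 lay between 50.8 and 108 CPM (median 57.1) in hypothalamus and between 0.469 and 2.36 CPM (median 1.3) in cortex and Tekt1 between 84 and 168 CPM (median 130.5) in hypothalamus and between 2.96 and 13.2 CPM (median 7.51) in cortex. Both separated the regions fully (5.67 ± 0.44 and 4.11 ± 0.34). Of the 18 axoneme members that were called higher and had a promoter in the table, 6 held a match.

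Tanycytes, the elongated cells of the floor of the third ventricle, have markers that split by direction. Of the 10 tested, 6 were higher in hypothalamus and 3 were lower. Rax, Gpr50, Scn7a and Fndc3c1, given above, were among the higher ones. Col25a1, a membrane collagen, also belongs to them, between 9.25 and 41.9 CPM (median 25.6) in hypothalamus and between 0.125 and 1.21 CPM (median 0.36) in cortex (5.58 ± 0.66, adjusted p = 2.22e-05). The lower ones were Dio2, Crym and Pdzph1, and Dio2 is also made by astrocytes. Dio2, the deiodinase that makes active thyroid hormone, lay between 6.14 and 18.7 CPM (median 12.2) in hypothalamus and between 95 and 218 CPM (median 132) in cortex, with no overlap (-3.50 ± 0.32, adjusted p = 2.69e-06). Crym, a thyroid hormone-binding crystallin, lay between 6.14 and 21.2 CPM (median 12.3) in hypothalamus and between 55.1 and 328 CPM (median 94.8) in cortex (-3.25 ± 0.47, adjusted p = 0.000136). Pdzph1 had a change of -2.31 ± 0.47 (adjusted p = 0.00162), and the change was smaller in size, -1.66, without cortex replicate 6. It was named after its value was seen. Of 11 choroid plexus markers, 4 were lower and 1 was higher. The 4 became 0 without hypothalamus replicate 2 or cortex replicate 4, 1 without any 1 of hypothalamus replicates 1, 4, 5 and 6, 2 without cortex replicate 1 and 7 without hypothalamus replicate 3. Ttr, the thyroxine carrier of the choroid plexus, lay between 1.74 and 486 CPM (median 25.9) in hypothalamus and between 198 and 2938 CPM (median 860.1) in cortex (-3.52 ± 1.21, adjusted p = 0.0365). It was no longer called without any 1 of hypothalamus replicates 1, 2, 4, 5 and 6 or cortex replicates 1 and 4, with adjusted p from 0.0503 to 0.0741, and its change was -5.91 without hypothalamus replicate 3.

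**Figure D3:**
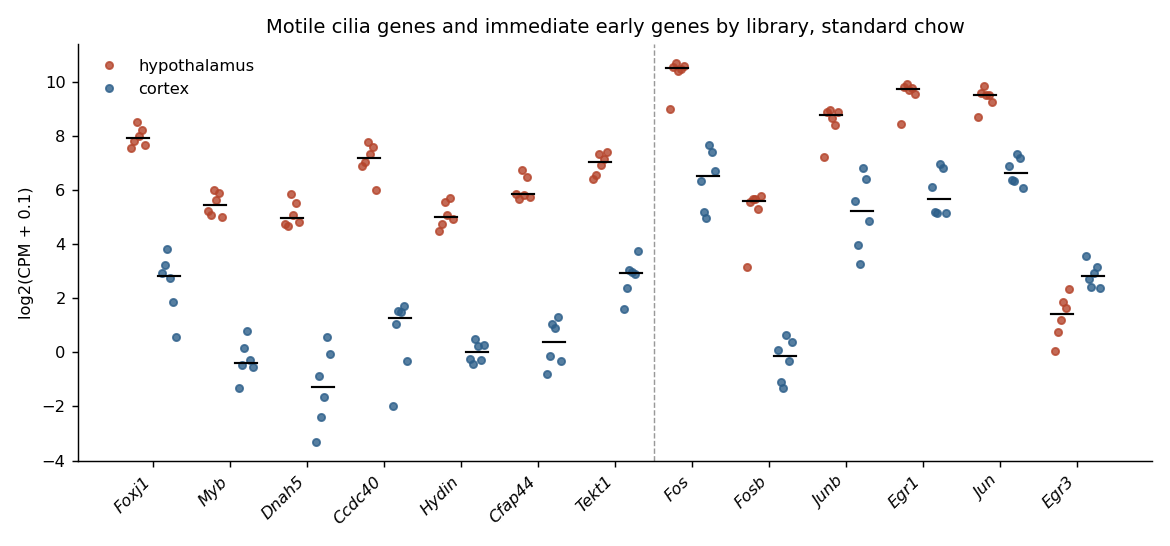
Levels of 7 motile cilia genes (left of the dashed line) and 6 immediate early genes (right of it) in each library on SC, as log2(CPM + 0.1). Points are libraries (hypothalamus red, cortex blue, n = 6 each), and black bars are medians. Foxj1 and Fos do not overlap between regions, and Egr3 is the early gene with the opposite order.

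Genes of astrocyte function were then set against the astrocyte markers. All 8 genes of glutamate uptake and metabolism were lower in hypothalamus, with a median of -1.69. Slc1a3, the second astrocytic glutamate transporter, lay between 573 and 1255 CPM (median 903) in hypothalamus and between 3320 and 9462 CPM (median 5740) in cortex (-2.72 ± 0.29, adjusted p = 7.39e-06). Per transcript length, Slc1a3 averaged 375 TPM in hypothalamus and 1750 TPM in cortex, and Slc1a2 averaged 47.8 TPM and 467 TPM. Glul, which turns glutamate into glutamine, lay between 355 and 489 CPM (median 375) in hypothalamus and between 1225 and 4745 CPM (median 1673) in cortex (-2.48 ± 0.31, adjusted p = 3.91e-05). No library of hypothalamus reached the lowest cortex library for these 3 genes.

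GABA receptors and the potassium channel Kcnk1 followed. Of 12 genes of GABA and glycine handling, 8 were lower and 1 was higher. Gabrb1, a subunit of the GABA-A receptor, lay between 25.4 and 49 CPM (median 33.8) in hypothalamus and between 126 and 248 CPM (median 159) in cortex (-2.24 ± 0.23, adjusted p = 5.13e-06). Of 8 connexin and potassium channel genes, 6 were lower and 1 was higher. Gja1, the main gap junction protein of astrocytes, lay between 518 and 888 CPM (median 632) in hypothalamus and between 1179 and 2444 CPM (median 1845) in cortex (-1.40 ± 0.22, adjusted p = 0.000243). Gjb6, its partner connexin 30, had the larger change (-2.42 ± 0.27, adjusted p = 1.42e-05). Kcnk1, a leak channel, lay between 25.9 and 53.6 CPM (median 47.1) in hypothalamus and between 361 and 637 CPM (median 502) in cortex (-3.57 ± 0.24, adjusted p = 1.87e-07). The gene with the opposite sign was Panx1, a large-pore channel also used by other cells, between 7.24 and 10.3 CPM (median 8.65) in hypothalamus and between 0.635 and 2.57 CPM (median 1.03) in cortex (2.67 ± 0.33, adjusted p = 3.52e-05).

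Endfoot genes were lower by less. Of 10, 5 were lower and 1 was higher, with a median of -0.76. Aqp4, the water channel of the endfeet, lay between 142 and 292 CPM (median 221) in hypothalamus and between 442 and 1026 CPM (median 643) in cortex (-1.62 ± 0.23, adjusted p = 0.000116). Dag1, which anchors the complex to the basement membrane, lay between 80.5 and 215 CPM (median 172) in hypothalamus and between 55.1 and 193 CPM (median 140.1) in cortex and was not called (0.29 ± 0.30, adjusted p = 0.465). Of 13 intermediate filament and reactive genes, 5 were higher, 1, Gfap, was lower and 7 were not called, with a median of 0.37. Synm, a filament protein, lay between 72.5 and 178 CPM (median 109) in hypothalamus and between 19.4 and 61.6 CPM (median 37.5) in cortex (1.67 ± 0.31, adjusted p = 0.00101). C4b, a complement component, lay between 49.2 and 124 CPM (median 120.1) in hypothalamus and between 20.6 and 39.3 CPM (median 30.5) in cortex (1.75 ± 0.25, adjusted p = 9.92e-05). Cd44, a hyaluronan receptor of fibrous astrocytes, lay between 6.66 and 14.9 CPM (median 9.19) in hypothalamus and between 2 and 4.87 CPM (median 2.86) in cortex (1.67 ± 0.32, adjusted p = 0.00112). These 3 genes separated the regions in every library. S1pr3, a sphingosine phosphate receptor, belongs to the same group (2.22 ± 0.44, adjusted p = 0.00157). Oligodendrocyte, precursor, ependymal and vascular cells can express several of these genes. Marker levels of oligodendrocyte, precursor and ependymal cells, given above, differed between the fractions. Of the vascular lists, 3 of 10 mural and 0 of 13 endothelial markers were called.

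Secreted synapse factors and receptors were mixed. Of 11 synaptogenic factors, 4 were lower and 1 was higher. Sparcl1 (hevin), which promotes synapses, lay between 1366 and 2911 CPM (median 2045) in hypothalamus and between 7295 and 12000 CPM (median 8105) in cortex (-2.09 ± 0.24, adjusted p = 1.50e-05). Its antagonist Sparc lay between 949.7 and 2831 CPM (median 1482) in hypothalamus and between 1002 and 2322 CPM (median 1277) in cortex (0.19 ± 0.29, adjusted p = 0.646). The ranges of Sparc overlapped almost wholly, and those of Sparcl1 not at all. Of 15 transmitter receptors, 6 were lower and 3 were higher. The higher count lay near the share of all genes tested that were higher, 19.0%. Grm3, a metabotropic glutamate receptor of astrocytes, lay between 65.4 and 181 CPM (median 107) in hypothalamus and between 233 and 708 CPM (median 513) in cortex (-2.19 ± 0.29, adjusted p = 6.05e-05). P2rx7, an ATP-gated channel that microglia and oligodendrocytes also carry, lay between 21.6 and 44.9 CPM (median 37.7) in hypothalamus and between 13 and 19.5 CPM (median 14.5) in cortex (1.27 ± 0.20, adjusted p = 0.000208).

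**Figure D4:**
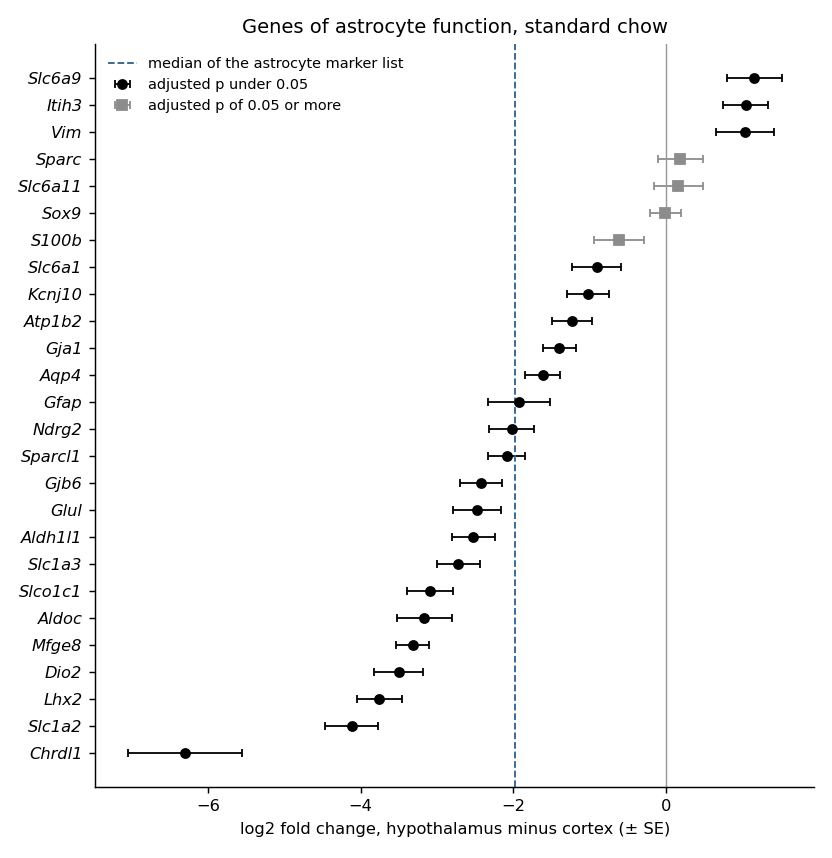
Log2 fold change (hypothalamus minus cortex, SC, n = 6 each) of 26 genes of astrocyte function, with the SE as horizontal bars. Black circles passed an adjusted p under 0.05, grey squares did not, and the dashed line is the median of the astrocyte marker list at -1.97. Chrdl1 and Slc1a2 lie left of that line, and Sox9, Slc6a11 and Sparc lie near 0.

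The same genes were also expressed relative to the summed astrocyte markers of each library, which scales every library to an equal astrocyte signal. On this scale the median of all genes moved to 2.34, 16652 genes were higher and 129 were lower in hypothalamus. The 20 markers, Slc1a2, Slc1a3, Aqp4 and Sox9 among them, are part of the sum, so their signs on this scale follow in part from it. Aldoc, the most abundant of the 20 in cortex, weighs most in the sum. The median of the astrocyte list itself was 0.33. Among the genes that were still lower were the telencephalic factors Emx2 (-3.01 ± 0.44, adjusted p = 1.28e-05) and Lhx2 (-1.44 ± 0.30, adjusted p = 0.000287). Over all 11 telencephalic factors, 4 were higher and 4 lower on this scale, with a median of 0.65. Chrdl1 (-4.16 ± 0.56, adjusted p = 6.30e-06), Slc1a2 (-1.83 ± 0.23, adjusted p = 2.99e-06), Kcnk1 (-1.26 ± 0.21, adjusted p = 3.60e-05) and Dio2 (-1.17 ± 0.31, adjusted p = 0.00205) also remained lower. Slc1a3 (-0.43 ± 0.25, adjusted p = 0.122) and Glul (0.02 ± 0.30, adjusted p = 0.941) no longer passed. The members with the smaller changes before scaling were higher on this scale, Sox9 (2.37 ± 0.28, adjusted p = 2.12e-06) and Aqp4 (0.76 ± 0.23, adjusted p = 0.00496) among them. Of the 7 cortical excitatory genes, 6 were lower on this scale, with a median of -1.49.

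Of 11 thyroid hormone genes, 7 were lower and 1 was higher, with a median of -1.12. Per astrocyte marker, 6 were higher and 3 lower, with a median of 1.19. On that scale 16652 of all 18656 genes were higher, and their median was 2.34. Besides Dio2 and Crym, Slco1c1, the thyroxine transporter of astrocytes and brain vessels, lay between 47.3 and 127 CPM (median 68) in hypothalamus and between 419.5 and 923 CPM (median 648) in cortex (-3.09 ± 0.30, adjusted p = 3.96e-06). Thrb, a thyroid hormone receptor, lay between 7.8 and 13 CPM (median 9.61) in hypothalamus and between 20.5 and 38.8 CPM (median 24.3) in cortex (-1.41 ± 0.21, adjusted p = 0.000167). The member that was higher, Hr, is a corepressor of the receptor (1.05 ± 0.31, adjusted p = 0.0175).

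Receptors for hormones and energy signals were mostly low in both regions. Of 17 tested, 6 were lower and 2 were higher in hypothalamus, with 1 higher without hypothalamus replicate 3 or cortex replicate 2. Lepr, the leptin receptor, lay between 0.418 and 2.31 CPM (median 0.966) in hypothalamus and between 0.45 and 10.2 CPM (median 2.31) in cortex (-1.65 ± 0.67, adjusted p = 0.0698). Insr, the insulin receptor, lay between 7.42 and 19.6 CPM (median 12.8) in hypothalamus and between 9.84 and 20.1 CPM (median 16.7) in cortex (-0.25 ± 0.25, adjusted p = 0.449). Both receptors, often studied in hypothalamic astrocytes, overlapped between the regions. Ghr, the growth hormone receptor, lay between 12.2 and 20.1 CPM (median 16.8) in hypothalamus and between 30.9 and 47.4 CPM (median 33.2) in cortex (-1.13 ± 0.18, adjusted p = 0.000276). Calcr, the calcitonin receptor, lay between 0.317 and 2.17 CPM (median 1.51) in hypothalamus and between 0 and 0.0965 CPM (median 0.0248) in cortex (5.46 ± 0.87, adjusted p = 0.000271), which in cortex is hardly above 0.

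Developmental signalling genes were called in both directions. Across all genes tested, 19.0% were higher and 17.3% lower in hypothalamus. The lower counts of the Notch and hedgehog lists and both counts of the FGF list lay near these shares. In the Wnt list of 16, 7 were lower and 2 higher, and 10 were lower without cortex replicate 6. Fzd2, a Wnt receptor, lay between 7.85 and 16.2 CPM (median 10.9) in hypothalamus and between 45.5 and 75.3 CPM (median 53.7) in cortex (-2.36 ± 0.21, adjusted p = 1.87e-06), and Wnt7a, a ligand, between 6.55 and 20.7 CPM (median 14) in hypothalamus and between 43 and 96.4 CPM (median 63.2) in cortex (-2.25 ± 0.28, adjusted p = 3.63e-05). Wnt5a, a ligand of the non-canonical branch, had the opposite order, between 8.6 and 18.8 CPM (median 14) in hypothalamus and between 1.13 and 7.51 CPM (median 4.27) in cortex (1.70 ± 0.45, adjusted p = 0.0098). Of 13 BMP and TGF-beta genes, 6 were lower and 1 was higher, or 3 higher without cortex replicate 4, with the receptor Bmpr1b at -2.39 ± 0.33 (adjusted p = 8.42e-05) and the target Id3 at -2.08 ± 0.40 (adjusted p = 0.00108). Of 12 FGF genes, 3 were lower and 3 were higher, and 5 were lower without cortex replicate 6. Fgf10, a ligand that tanycytes make, lay between 1.85 and 10.9 CPM (median 7.4) in hypothalamus and between 0 and 0.376 CPM (median 0.256) in cortex (4.85 ± 0.63, adjusted p = 4.95e-05). Fgfr3, a receptor of astrocytes, lay between 90.2 and 322 CPM (median 166) in hypothalamus and between 241 and 712 CPM (median 523) in cortex (-1.46 ± 0.33, adjusted p = 0.00357). Of 11 Notch genes, 4 were higher and 2 were lower, and the transcriptional targets differed in sign, with Hes5 at -1.72 ± 0.30 (adjusted p = 0.000509) and Hes1 at 0.81 ± 0.20 (adjusted p = 0.0057). Of 11 hedgehog genes, 4 were higher and 2 were lower, and Gli3, the pathway's main repressor, lay between 4.52 and 7.05 CPM (median 5.42) in hypothalamus and between 12.5 and 32.3 CPM (median 19) in cortex (-1.82 ± 0.25, adjusted p = 7.65e-05). The 4 Notch calls became 2 without any 1 of hypothalamus replicates 1 to 4 or cortex replicates 2, 3 and 5, and the 4 hedgehog calls became 1 without hypothalamus replicate 2.

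Transcripts of energy and lipid metabolism were lower in hypothalamus in several lists when libraries were scaled by TMM. Per astrocyte marker, 21 glycolysis and lactate genes were higher and 1 lower, and 8 glycogen genes were higher and 0 lower. For fatty acid oxidation, 19 were higher and 0 lower, and for cholesterol synthesis 15 were higher and 0 lower. On that scale 16652 of all 18656 genes were higher, with a median of 2.34. The medians of these lists lay below it, at 1.2, 1.06, 1.1 and 0.86 in that order. With TMM scaling, 15 of 24 glycolysis and lactate genes were lower and 1 was higher, with a median of -1.21. Aldoc, the astrocytic aldolase, lay between 789 and 2415 CPM (median 1396) in hypothalamus and between 8301 and 22250 CPM (median 10700) in cortex (-3.17 ± 0.36, adjusted p = 1.54e-05). Ldha, a subunit of lactate dehydrogenase, lay between 143 and 206 CPM (median 175) in hypothalamus and between 457 and 657 CPM (median 500.5) in cortex (-1.61 ± 0.17, adjusted p = 6.25e-06). Pfkfb3, which speeds glycolysis through fructose bisphosphate, lay between 8.57 and 40.1 CPM (median 26.9) in hypothalamus and between 13.7 and 25.4 CPM (median 19.9) in cortex (0.38 ± 0.29, adjusted p = 0.323). Aldoc and Ldha had separate groups, and Pfkfb3 did not. Of 11 glycogen genes, 10 were lower, among them Ppp1r3c, a glycogen-targeting subunit, between 16.8 and 47.7 CPM (median 35.3) in hypothalamus and between 137 and 235 CPM (median 164) in cortex (-2.31 ± 0.24, adjusted p = 7.61e-06).

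Of 24 genes of fatty acid oxidation, 21 were lower and 0 higher, with a median of -1.19. Ppara, the nuclear receptor that switches the pathway on, lay between 1.81 and 3.15 CPM (median 2.12) in hypothalamus and between 8.75 and 19.1 CPM (median 14.4) in cortex (-2.59 ± 0.26, adjusted p = 5.80e-06). Acadl, a dehydrogenase of long-chain fatty acids, lay between 73.3 and 111 CPM (median 82.2) in hypothalamus and between 228 and 374 CPM (median 265) in cortex (-1.74 ± 0.19, adjusted p = 9.16e-06). Cpt1a, which admits fatty acids to mitochondria, lay between 40.1 and 83.1 CPM (median 71.8) in hypothalamus and between 59.9 and 204 CPM (median 148) in cortex and overlapped between regions (-1.10 ± 0.27, adjusted p = 0.00625). Of 24 cholesterol synthesis genes, 20 were lower and 0 higher, with a median of -1.53. Idi1, an isomerase early in the pathway, lay between 44.4 and 74.2 CPM (median 68.4) in hypothalamus and between 239.7 and 360.2 CPM (median 250.1) in cortex (-2.07 ± 0.18, adjusted p = 1.44e-06). Of 13 lipoprotein and export genes, 3 were lower and 1 was higher. The lower count lay near the share of all genes tested that were lower, 17.3%. Lcat, which esterifies the cholesterol of lipoproteins, lay between 15.4 and 34.6 CPM (median 21.8) in hypothalamus and between 115 and 432 CPM (median 168) in cortex (-3.08 ± 0.35, adjusted p = 1.59e-05). Apoe, the main carrier of brain lipids, had a change of -2.17 ± 0.41 (adjusted p = 0.000961), and -1.57 without cortex replicate 6.

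Mitochondrial and ribosomal lists rested in part on cortex replicate 6. Of 24 nuclear genes of the respiratory chain, 23 were lower with a median of -1.61. Without that library 23 were again lower, with a median of -0.93. Uqcrc1, a core subunit of complex III, lay between 274 and 361 CPM (median 286) in hypothalamus and between 550.1 and 1200 CPM (median 703) in cortex (-1.41 ± 0.21, adjusted p = 0.000162). Of 13 mitochondrially encoded genes, 12 were lower with a median of -1.33, and without cortex replicate 6, 4 were lower with a median of -0.82. The 12 also became 4 without hypothalamus replicate 2 or 3 and 6 without hypothalamus replicate 1. Of 73 ribosomal protein genes tested, 7 were lower with a median of -0.81, and without cortex replicate 6, 4 were lower with a median of -0.15. Across all genes tested, 17.3% were lower, a larger share than in this list. The ribosomal calls ranged from 1 to 13 as single libraries were left out, with 1 without hypothalamus replicate 1 or 2, 2 without hypothalamus replicate 3, 4 or 5, 12 without cortex replicate 4 and 13 without cortex replicate 1. Of 7 metallothionein and zinc genes, 5 were lower, with a median of -1.63 that became -0.80 without cortex replicate 6. The zinc transporter Slc39a12 lay between 77 and 154 CPM (median 131) in hypothalamus and between 336 and 704 CPM (median 436) in cortex (-1.92 ± 0.23, adjusted p = 2.76e-05).

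Immediate early genes, which cells switch on within minutes of activity, stress or dissociation, were higher in hypothalamus. Of 22, 16 were higher and 1 was lower, with a median log2 fold change of 2.44. Hypothalamus replicate 1 had the lowest level of the list in its region. With any 1 library left out, 16 or 17 were higher and 1 was lower. Fos lay between 514 and 1655 CPM (median 1448) in hypothalamus and between 31.4 and 203 CPM (median 91.3) in cortex (3.68 ± 0.48, adjusted p = 5.78e-05). Egr1 lay between 347 and 974 CPM (median 848) in hypothalamus and between 35.4 and 123 CPM (median 53) in cortex (3.51 ± 0.40, adjusted p = 1.69e-05). Fosb lay between 8.82 and 54.6 CPM (median 48.4) in hypothalamus and between 0.299 and 1.46 CPM (median 0.825) in cortex (5.66 ± 0.53, adjusted p = 2.77e-06). These 3 transcription factor genes separated the regions in all libraries, and Jun, another member of the AP-1 family, did as well (2.67 ± 0.27, adjusted p = 5.54e-06). The gene that was lower was Egr3, between 0.927 and 4.96 CPM (median 2.58) in hypothalamus and between 5.08 and 11.8 CPM (median 7.01) in cortex (-1.48 ± 0.38, adjusted p = 0.00837). Hypothalamus and cortex cells passed over different columns, as said above, and neither their time on the column nor its part in these levels was tested.

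The promoters of the early genes were searched for TGACG, the half-site of the cyclic AMP response element that CREB binds, in the same way and on both strands, to show the site in Fos and its relative Fosb. Of 22 members, 18 had a promoter in the table and 10 of these held a match. Of all 32851 promoters, 17.8% held one. The stretches lie before the RefSeq start at chr12:85473640-85473889 (+ strand) for Fos and chr7:19310046-19310295 (- strand) for Fosb, with matches in capitals.
Fos: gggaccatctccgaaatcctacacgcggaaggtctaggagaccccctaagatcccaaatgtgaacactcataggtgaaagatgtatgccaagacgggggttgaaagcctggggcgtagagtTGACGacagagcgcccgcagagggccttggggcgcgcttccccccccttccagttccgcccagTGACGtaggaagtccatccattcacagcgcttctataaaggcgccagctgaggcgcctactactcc
Fosb: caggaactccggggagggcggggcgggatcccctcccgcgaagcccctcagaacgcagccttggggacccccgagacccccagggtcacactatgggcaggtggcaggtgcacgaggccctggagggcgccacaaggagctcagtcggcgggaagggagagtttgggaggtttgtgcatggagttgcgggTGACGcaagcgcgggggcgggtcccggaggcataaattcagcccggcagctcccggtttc

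The nearer of the 2 matches of Fos lies 66 bases before its start, and the single match of Fosb 60 bases before its start. Of the 14 members that were called higher and had a promoter, 8 held a match.

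Neuronal transcripts were present in both fractions. The general markers summed to 235 to 491 CPM in hypothalamus and 756 to 1401 CPM in cortex, and those of cortical excitatory neurons to 11.6 to 77.7 CPM and 488 to 1404 CPM. Of 11 general neuronal markers, 7 were lower in hypothalamus and 1 was higher. All 7 markers of cortical excitatory neurons were lower, with a median of -3.65 and no overlap. Camk2a, a kinase of excitatory synapses, lay between 4.35 and 43.7 CPM (median 16.7) in hypothalamus and between 251 and 986 CPM (median 306) in cortex (-4.42 ± 0.60, adjusted p = 7.50e-05). Rbfox3, the nuclear marker NeuN, lay between 3.66 and 11.7 CPM (median 7.91) in hypothalamus and between 24.9 and 59.3 CPM (median 49.2) in cortex (-2.54 ± 0.33, adjusted p = 5.43e-05). The 3 markers of inhibitory neurons did not pass, as in Gad1, which makes GABA, between 11.3 and 24.6 CPM (median 21.4) in hypothalamus and between 8.05 and 28.4 CPM (median 10.6) in cortex (0.55 ± 0.32, adjusted p = 0.197).

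Peptide and granule genes differed by gene. Of 22 hypothalamic neuropeptide and transmitter genes tested, 9 were higher and 1 was lower. The 9 became 16 without cortex replicate 6, and 6 without any 1 of hypothalamus replicate 4 and cortex replicates 1 and 3. Hdc, which makes histamine and is used by neurons of the tuberomammillary nucleus and by mast cells, lay between 79 and 144 CPM (median 116) in hypothalamus and between 5.56 and 10.6 CPM (median 8.86) in cortex (3.74 ± 0.23, adjusted p = 1.04e-07). Pomc, the precursor of melanocortins, lay between 3.63 and 13.4 CPM (median 5.66) in hypothalamus and between 1.81 and 19.7 CPM (median 3.76) in cortex (0.20 ± 0.56, adjusted p = 0.802). Npy, a peptide of hypothalamic and of cortical neurons, lay between 4.55 and 13.9 CPM (median 6.46) in hypothalamus and between 8.64 and 28.9 CPM (median 22.7) in cortex (-1.47 ± 0.33, adjusted p = 0.00352). Hdc separated the regions, Pomc did not, and Npy was the member lower in hypothalamus. Of 11 granule and prohormone genes, 5 were higher and 3 were lower. Chga, a granin, lay between 12.7 and 168 CPM (median 79.9) in hypothalamus and between 5.41 and 11.8 CPM (median 7.43) in cortex (3.33 ± 0.55, adjusted p = 0.000362). Scg3, another granin that astrocytes also express, lay between 71.3 and 182 CPM (median 109) in hypothalamus and between 713 and 1690 CPM (median 951) in cortex (-3.19 ± 0.29, adjusted p = 2.22e-06). Cpe, a processing enzyme of peptides, followed Scg3 (-2.33 ± 0.30, adjusted p = 5.00e-05). Of 9 pituitary genes, 3 were tested and Cga and Tshb were higher, Cga between 0.313 and 23.7 CPM (median 9.46) in hypothalamus and between 0 and 0.193 CPM (median 0.0467) in cortex and Tshb between 0.279 and 6.1 CPM (median 3.43) in hypothalamus and between 0.141 and 0.691 CPM (median 0.261) in cortex. A gene expressed in hypothalamus alone passes the filter on low counts through its hypothalamus libraries. The pituitary calls therefore describe the 3 genes tested and do not speak for the list. Prl had no reads in any of the 12 libraries, and Gh reached at most 0.418 CPM.

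The same regions were compared on HFHS in other libraries, 5 of hypothalamus and 6 of cortex. Of 18638 genes tested, 2241 were higher in hypothalamus (12.0%) and 1335 were lower (7.16%). The lower count was 832, 811 and 887 without hypothalamus HFHS replicate 1, 4 and 5, and 2108 without cortex HFHS replicate 6. A total of 2758 genes were called in the same direction on both diets, which is 40.75% of the genes called on SC and 77.13% of those called on HFHS, and 6 were called in opposite directions. Across 18160 genes tested on both diets, Spearman's rho of the log2 fold changes was 0.73 and Pearson's r was 0.84, as a description over genes, which are not independent. On HFHS, the axoneme list had 22 of 22 higher with a median of 4.32, the early genes 17 of 22 higher and 2 lower with a median of 2.70, and the cortical excitatory markers 7 of 7 lower with a median of -3.90. Other lists had medians nearer 0 than on SC, at -2.02 for the telencephalic astrocyte genes, 1.74 for the committed precursors and 2.24 for the oligodendrocyte precursors, against -3.54, 3.48 and 3.59 on SC. Emx2 had a change of -5.02 ± 0.46 (adjusted p = 1.03e-05), Nkx2-1 of 5.17 ± 0.46 (adjusted p = 8.52e-06) and Chrdl1 of -7.34 ± 0.63 (adjusted p = 7.45e-06). Slc1a2 (-2.95 ± 0.47, adjusted p = 0.000593), Dio2 (-3.23 ± 0.36, adjusted p = 3.57e-05), Hdc (3.83 ± 0.25, adjusted p = 2.67e-06) and Fos (3.83 ± 0.33, adjusted p = 7.86e-06) were called in the same direction as on SC.

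On HFHS, the count of astrocyte markers called changed most when hypothalamus replicate 2 was left out. Of 20 astrocyte markers, 6 were lower on HFHS, with a median of -0.83. The summed markers reached 34740 CPM in hypothalamus HFHS replicate 2, 9190 to 11870 CPM in the other 4 hypothalamus libraries, and 26280 CPM or more in the cortex libraries. Without replicate 2, 17 of the 20 were lower, with a median of -1.46, and without any other 1 of the hypothalamus libraries 3 were lower. Aqp4 had a change of -0.57 ± 0.39 (adjusted p = 0.353) and Atp1b2 of -0.44 ± 0.46 (adjusted p = 0.57) with all libraries. Without replicate 2, Aqp4 was at -1.05 (edgeR adjusted p = 0.0403) and Atp1b2 at -1.23 (edgeR adjusted p = 0.0156). Of 24 fatty acid oxidation genes, 10 were lower with a median of -0.70. They numbered 12 without hypothalamus HFHS replicate 2, 3 without any other 1 of the hypothalamus libraries, and 5 without cortex HFHS replicate 2 or 4. Of 24 cholesterol synthesis genes, 17 were lower with a median of -1.10. With single libraries left out, they ranged from 12 without hypothalamus HFHS replicate 4 to 19 without cortex HFHS replicate 6. The oligodendrocyte precursor list had 7 of 8 higher, with a median of 2.24. The difference between the diets in these region effects was not tested here.

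**Figure D5:**
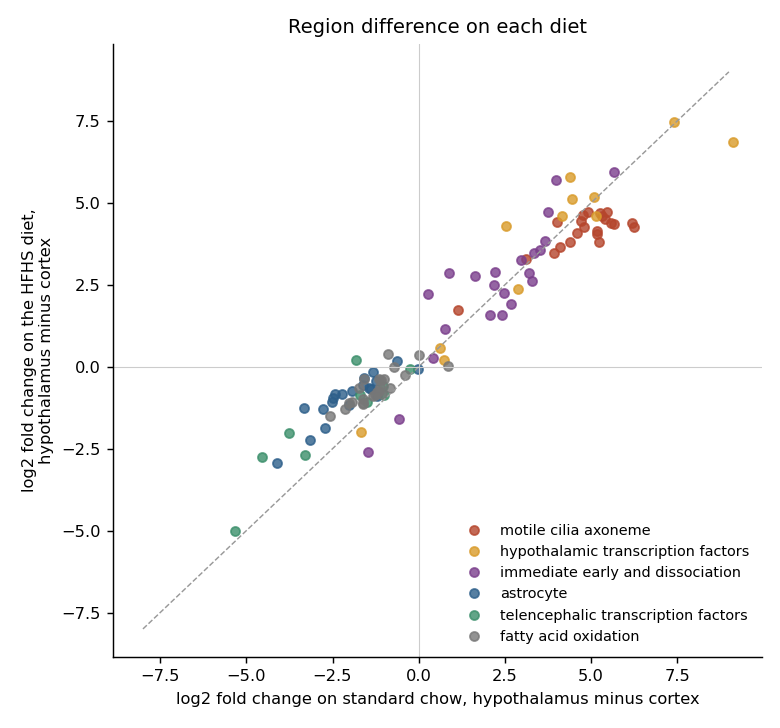
Log2 fold change (hypothalamus minus cortex) of members of 6 gene lists on SC (horizontal axis, 6 and 6 libraries) and on HFHS (vertical axis, 5 and 6 other libraries). Each point is a gene, and the dashed line marks equal values. Of 20 astrocyte markers, 19 lie above it, with list medians of -1.97 on SC and -0.83 on HFHS, which was -1.46 without hypothalamus HFHS replicate 2.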

How the data were processed

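Per the submitters' processing notes, Salmon was run on GRCm38, and FastQC was used. Their versions, any trimming and the transcripts indexed were not given in the sources used here. The authors' deposited files give estimated counts and TPM per transcript. Estimated counts were summed per gene with the GENCODE release 21 annotation, which held 139852 of 140948 transcripts, and rounded. The 12 libraries were fitted together with edgeR 4.0.16 (R 4.3.3) after its filter on low counts, with TMM scaling, a quasi-likelihood test and Benjamini-Hochberg adjustment over all genes tested, called under 0.05. CPM are TMM-scaled, and the SE was derived from the fold change and its F statistic. TPM, as deposited by the authors, was used to compare levels between genes.

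The members and the gene lists were chosen with earlier results of these data known. Named genes are the first 3 of a list, its 4 smallest p-values, its largest called change in each direction, every member of short lists, the 12 largest changes in each direction, and Atp1b2, Gfap and Aqp4. The fit was tested on simulated data. Alternatives with limma 3.58.1 and DESeq2 1.42.0, other scalings and filters, and single libraries left out are given in the closing section. Labels name pools and not cultures or donors, so p-values measure the spread between pools. Some genes that this rule names are not reported here.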

Additional observations from a re-analysis of the deposited data

Results flagged for a closer look

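Of 116 levels of gene lists per group, 11 had 1 library apart from the other 5 by Dixon's criterion, where chance gives about 1 in 20. Cortex replicate 6 was flagged for the nuclear respiratory chain at 9.86 (mean log2 CPM of the list), the ribosomal proteins at 7.44, the mitochondrially encoded genes at 12.5, the Wnt list at 3.79 and the pituitary list at -3.12. The same library was flagged for its mean transcript length of 1034 bases and for its mitochondrially encoded share of 10.9%.

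Hypothalamus replicate 6 was flagged for the mural markers at 4.35, the ephrins and Eph receptors at 2.72, the hypothalamic neuropeptides at 2.31 and the collagens at 3.21. Hypothalamus replicate 3 was flagged for the choroid plexus markers at 4.25, and hypothalamus replicate 1 for the immediate early genes at 6.20.

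On HFHS, hypothalamus replicate 2 stood apart in the summed astrocyte markers, at 34740 CPM against 9190 to 11870 CPM in the other 4 libraries, which was noticed after the values were seen.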

How the results depend on the processing

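The 3542 higher and 3226 lower genes on SC became 3867 and 3956 with DESeq2, 4729 and 3887 with limma-voom, 3342 and 3495 with DESeq2's size factors, 3591 and 3068 with no filter, and 3234 and 2945 with at least 1 CPM in 6 libraries. They became 5006 and 1700 with library totals, 6063 and 1216 with limma on log2(TPM + 1), where the median of all genes was 0.38, and 16652 and 129 per astrocyte marker. In the model of all 6 groups they were 3827 and 3955. With single libraries left out, the higher genes ranged from 3016 to 4243 and the lower ones from 2572 to 3429. On HFHS, the 2241 higher and 1335 lower genes became 2687 and 2148 with DESeq2 and 13796 and 132 per astrocyte marker. With single libraries left out they ranged from 1736 to 2631 and from 811 to 2108. With the replicate number as a block, 3867 genes were higher and 3193 lower on SC, and 2435 and 1738 on HFHS. The numbers were not taken as pairs, since the labels do not say whether pools with the same number share animals. Correlations of same-numbered libraries, as deviations from their group means, ran from 0.051 to 0.27 on SC, all above 0. On SC, numbers 3, 4 and 6 correlated best with their own. On HFHS the correlations ran from -0.054 to 0.135, and only number 3 correlated best with its own. These values do not settle whether same-numbered pools shared animals or handling, which was not tested. The next count leaves out the settings on SC that moved the median of all genes most. These were no filter, library totals, limma on log2(TPM + 1) and astrocyte marker scaling. In the others, 111 of the 117 called genes named in the text kept their call and 0 reversed. Fgfr3, Hes1, Hr, Itih3 and Slc6a9 lost it in the model of all 6 groups, and Slc6a9 and Ttr lost it without single libraries. Per astrocyte marker, Slc1a3, Glul and Gfap, among others, lost their call, and Aqp4 and Atp1b2 were called with the opposite sign. Slc1a3, Gfap, Aqp4 and Atp1b2 are themselves part of the sum that sets this scale. The cause was not tested. Where a list had 1 call against its main direction (neuronal, GABA and glycine, endfoot, synaptogenic, glycolysis, midline and imprinted lists), that call was lost without at least 1 library. Cortex replicate 6 limits what the mitochondrial and ribosomal lists show.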

Other observations

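Imprinted genes, expressed from 1 parental allele, were higher in hypothalamus for 12 of the 23 tested and lower for 1, with a median log2 fold change of 0.96. Ndn, a growth regulator, lay between 88.5 and 115 CPM (median 106) in hypothalamus and between 22.9 and 42 CPM (median 27.7) in cortex (1.75 ± 0.19, edgeR adjusted p = 9.73e-06). With single libraries left out, 9 to 13 were higher. On HFHS, 7 were higher and 0 lower, with a median of 0.76.

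Circadian clock genes were lower for 6 of 16 and higher for 1. Dbp, an output factor of the clock, lay between 36.6 and 55.5 CPM (median 43.5) in hypothalamus and between 100.2 and 283 CPM (median 142) in cortex (-1.89 ± 0.26, edgeR adjusted p = 7.82e-05). Of 16 collagen and basement membrane genes, 6 were higher and 0 lower, with a median of 1.07, and of 17 interferon and antigen presentation genes, 1 was higher and 0 lower, with 0 to 4 higher when 1 library was left out. Of 21 antioxidant genes, 11 were lower and 0 higher, with a median of -0.66, and 3 were higher without cortex replicate 6.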
